A study of Mus musculus with 12 samples.

Results

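The Fc gamma receptors are the receptors through which leukocytes bind immunoglobulin G. Their mouse genes were followed here in ascites cells from mice with ovarian tumours in the peritoneal cavity, as 4 of the 750 genes of a NanoString immune panel. They were chosen by name (Fcgr1, Fcgr2b, Fcgr3 and Fcgr4). The rule holds no measured value, but earlier results of these data were known when it was set. All 4 were measured in all 12 samples. A NanoString panel counts single RNA molecules with colour-coded probes, and the study's design text states 770 genes for it. Tumour cells were injected into the peritoneal cavity, and the ascites was collected on day 21 for RNA.

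The samples formed 4 groups of 3. In the FAKWT group the tumour cells were wild type for FAK, the focal adhesion tyrosine kinase, and the mice had no treatment. In the FAKKD group, also untreated, the tumour cells were labelled KTFAKKD, an abbreviation that the labels do not expand. The inhibitor group had FAKWT cells and the FAK inhibitor VS4716, given by gavage at 100 mg per kg, 2 times a day. The vehicle group had gavage of the carrier alone and is FAKWT by its sample titles, whereas the genotype field of those 3 samples reads KTFAKKD. Titles were followed. All 4 groups thus share the tumour model and the day of collection. The FAKKD label applies to the injected tumour cells, while the inhibitor was given to the whole mouse. The labels give no strain, age or sex, and do not state whether each sample is a mouse of its own, so the tests rest on a spread between samples that may be technical.

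Fc gamma receptors differ in affinity and in the sign of their signal. Fcgr1 encodes the high-affinity receptor, Fcgr3 a low-affinity one and Fcgr4 one of intermediate affinity. These receptors are activating: they pair with the common gamma chain encoded by Fcer1g, whose ITAM motif is phosphorylated by Src-family kinases and recruits the kinase Syk. Fcgr2b encodes the inhibitory receptor, whose own ITIM motif recruits the phosphatase SHIP1 (Inpp5d). Macrophages carry the activating receptors together with Fcgr2b, B cells carry Fcgr2b, and NK cells carry Fcgr3. In tumours, engagement of the activating receptors on macrophages drives phagocytosis of antibody-coated cells.

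Fcgr2b, Fcgr3 and Fcgr4 lie on mouse chromosome 1 and Fcgr1 lies on chromosome 3. The RefSeq table of assembly GRCm38.p6 lists them as protein-coding genes 14129 (Fcgr1), 14130 (Fcgr2b), 14131 (Fcgr3) and 246256 (Fcgr4). The 250 bases before each annotated start are shown because Fcgr1 and Fcgr4 had interferon-inducible genes among the genes of most similar pattern across samples. The windows are chr3:96293970-96294219 on the minus strand for Fcgr1, chr1:170976072-170976321 on the minus strand for Fcgr2b, chr1:171059404-171059653 on the minus strand for Fcgr3 (the first of 2 annotated starts) and chr1:171018676-171018925 on the plus strand for Fcgr4. Each is written 5′ to 3′ towards the gene. Capitals mark matches to TTCNNNGAA, the palindromic element bound by STAT dimers, and to GAGGAA or its reverse complement TTCCTC, the core element of the myeloid factor PU.1. These motifs were chosen after the sequences had been seen.
Fcgr1: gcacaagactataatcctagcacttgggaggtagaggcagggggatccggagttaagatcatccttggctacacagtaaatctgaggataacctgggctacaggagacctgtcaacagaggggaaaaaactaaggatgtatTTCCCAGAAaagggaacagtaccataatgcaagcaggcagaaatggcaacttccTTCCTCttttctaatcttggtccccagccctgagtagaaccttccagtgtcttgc
Fcgr2b: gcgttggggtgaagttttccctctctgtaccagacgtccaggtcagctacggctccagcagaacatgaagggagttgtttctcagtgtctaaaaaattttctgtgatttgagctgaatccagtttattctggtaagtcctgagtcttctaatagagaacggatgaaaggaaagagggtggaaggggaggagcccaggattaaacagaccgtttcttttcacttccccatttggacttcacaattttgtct
Fcgr3: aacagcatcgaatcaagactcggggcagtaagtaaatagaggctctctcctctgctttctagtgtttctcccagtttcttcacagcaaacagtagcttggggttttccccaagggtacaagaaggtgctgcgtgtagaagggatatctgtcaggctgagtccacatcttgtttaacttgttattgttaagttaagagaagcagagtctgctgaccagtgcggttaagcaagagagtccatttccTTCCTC
Fcgr4: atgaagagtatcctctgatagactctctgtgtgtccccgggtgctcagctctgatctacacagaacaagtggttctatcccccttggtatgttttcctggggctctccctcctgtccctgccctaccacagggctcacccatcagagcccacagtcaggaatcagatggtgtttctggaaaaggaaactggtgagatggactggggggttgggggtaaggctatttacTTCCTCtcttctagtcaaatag

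The STAT element was matched in the Fcgr1 window alone among these 4, as TTCCCAGAA beginning 109 bases before the start. An interferon-gamma response element of this type is known from the promoter of the human gene FCGR1A. The PU.1 core, as TTCCTC, began 55 bases before the start of Fcgr1, 6 bases before that of Fcgr3 and 22 bases before that of Fcgr4, and the Fcgr2b window held neither string. Among all 32851 promoter windows of this length in the table, 7.02% held TTCNNNGAA and 23.3% held the PU.1 core on either strand. The matches describe letters in these windows and not sites shown to be used.

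The deposited values were log2 values. In every sample they equalled the log2 of a whole number times 1 sample-wide factor for 100% of the genes, so the counts behind them could be recovered. Recovered totals ran from 588778 to 760152 counts per sample, and the 4 receptors made up 1.05% to 1.53% of them. The factors lay at 0.659 to 0.896 in FAKWT and vehicle samples, 1.13 to 1.25 in inhibitor samples and 1.29 to 1.66 in FAKKD samples. As a result the whole panel was shifted: the median gene was 0.95 log2 units higher in FAKKD than in FAKWT and 0.54 higher in inhibitor than in vehicle samples. Each comparison is therefore given on 2 scales, as deposited and relative to the panel, where every sample was first set to a common median over the 750 genes. On the second scale the median log2 difference over all genes was -0.10 in FAKKD and -0.20 with the inhibitor. FAKKD replicate 4 stood apart from the other FAKKD samples, with 15554 summed units over 22 interferon-response genes against 9104 and 9490. Receptor values that moved by over 1.5 times or changed call without it are given both ways, except correlations between receptors.

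The ascites cells were a mixture of tumour and host cells, and macrophage genes were plentiful in every group. The summed level of 16 measured macrophage genes on the deposited scale ran from 49303 to 65193 in FAKWT, from 66234 to 84464 in vehicle, from 125389 to 147022 in inhibitor and from 215828 to 233024 in FAKKD samples. None of these 16 genes was at the floor of 3 counts over a group. In such a mixture, fewer cells of a type and less RNA per cell cannot be told apart.

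Fcgr1, the high-affinity activating receptor, was lowest in untreated FAKWT ascites. Its log2 values were 7.60, 7.62 and 7.64 in FAKWT samples, 8.44, 8.23 and 7.87 in vehicle samples, 8.31, 8.25 and 8.14 in inhibitor samples, and 8.37, 9.19 and 8.48 in FAKKD samples. All 9 samples of the other groups lay above the 3 FAKWT samples. Vehicle and inhibitor samples overlapped, with means of 8.18 ± 0.29 and 8.23 ± 0.08 (SD, n = 3 each), and so did vehicle and FAKKD samples (8.68 ± 0.45). The recovered counts behind these values were small, from 227 to 464, and Fcgr1 counts in FAKWT (241 to 294) and FAKKD samples (233 to 352) overlapped before the factor was applied.

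Fcgr3, the low-affinity activating receptor, had group means in the ascending order FAKWT, vehicle, inhibitor, FAKKD. It measured 9.88, 10.07 and 9.79 in FAKWT, 10.36, 10.25 and 10.19 in vehicle, 10.61, 10.67 and 10.30 in inhibitor, and 11.36, 11.55 and 11.30 in FAKKD samples. The FAKKD samples formed a tight group (11.40 ± 0.13, SD, n = 3) above every other sample, and the neighbouring vehicle (10.27 ± 0.09) and inhibitor samples (10.53 ± 0.20) overlapped. Its recovered counts were 1801 to 1958 in FAKKD samples and 1012 to 1752 in all others.

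Fcgr4, the activating receptor of intermediate affinity, had the widest range of group means among these genes. Its log2 values were 10.16, 9.87 and 10.07 in FAKWT, 10.67, 10.88 and 10.65 in vehicle, 9.97, 10.01 and 9.78 in inhibitor, and 11.31, 12.35 and 11.22 in FAKKD samples. Inhibitor (9.92 ± 0.12, SD, n = 3) and FAKWT samples (10.04 ± 0.15) overlapped at the bottom, vehicle samples (10.73 ± 0.12) lay above both, and FAKKD samples lay on top. The FAKKD spread of 0.63 came from replicate 4, which held 3148 recovered Fcgr4 counts against 1787 and 1853 in the others. Inhibitor samples held 705 to 906 counts, the fewest of any group, before their factors, which were higher than those of the controls, were applied.

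Fcgr2b, the inhibitory receptor, separated the FAKKD and inhibitor samples from the controls on the deposited scale. It measured 11.57, 11.65 and 11.95 in FAKWT, 11.84, 12.18 and 12.10 in vehicle, 12.63, 12.66 and 12.47 in inhibitor, and 12.88, 12.46 and 12.79 in FAKKD samples. FAKWT and vehicle samples overlapped, inhibitor and FAKKD samples overlapped, and the latter 6 samples lay above the former 6. Recovered counts of 3399 to 6087 did not separate them, and FAKKD replicate 4, which had the highest deposited log2 value of each activating receptor, held the fewest Fcgr2b counts. Fcgr2b and Fcgr3 have nearly identical coding sequence for their extracellular parts, and the panel's probe sequences were not used here, so whether a probe counts both was not tested. Levels of different receptors rest on different probes, so which receptor is more abundant cannot be read from them, and differences between receptors within a sample are compared only across groups.

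For the whole panel, the samples of a pair of groups did not overlap on the deposited scale in 76.8% of genes for FAKWT and FAKKD, 72.8% for FAKWT and inhibitor, 74.3% for vehicle and FAKKD, 66.9% for vehicle and inhibitor, 48.9% for inhibitor and FAKKD, and 16.1% for FAKWT and vehicle. Separation of a receptor between controls and the FAKKD or inhibitor groups was thus common to most genes.

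**Figure D1:**
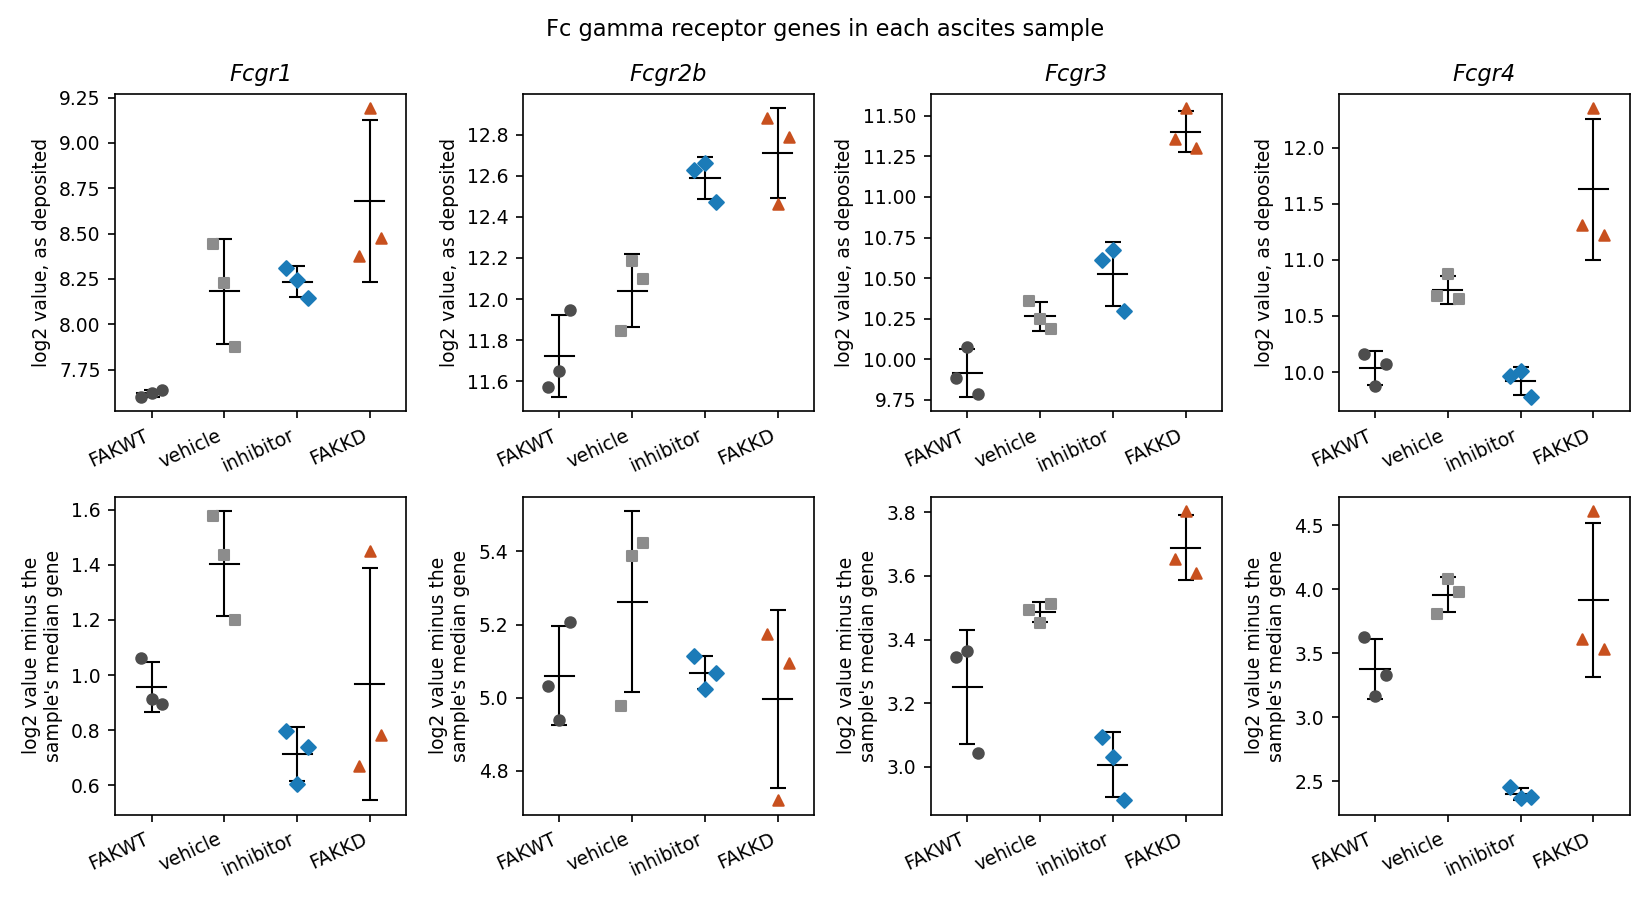
Log2 values of the 4 receptor genes in each sample, by group: the top row as deposited, the bottom row minus the median gene of the same sample (log2 units). Points are samples, horizontal bars are group means and whiskers are SD (n = 3); axes differ between panels and do not start at 0. On the deposited scale the FAKKD samples of Fcgr3 (11.30 to 11.55) and Fcgr4 (11.22 to 12.35) lie above all others, and against the panel median the inhibitor samples are lowest for Fcgr4. On that lower scale 60.3% of all genes separated inhibitor from FAKWT samples, 54.5% from vehicle and 44.4% from FAKKD samples.

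The FAKKD comparison asked how ascites cells differ when the tumour cells carry the KTFAKKD genotype. All 4 receptor genes were higher in FAKKD than in FAKWT samples on the deposited scale, by 3.02-fold for Fcgr4, 2.81-fold for Fcgr3, 2.09-fold for Fcgr1 and 1.98-fold for Fcgr2b, and none of their samples overlapped. Of the 750 genes, 74.5% passed the test (limma's moderated test, Benjamini-Hochberg adjusted p under 0.05 over all genes), 65.1% passed as higher and 9.47% as lower, and 76.8% had groups that did not overlap. A count of 4 of 4 receptors is thus near the background of the panel. The log2 fold changes were 1.59 ± 0.24 for Fcgr4 (SE; adjusted p = 1.01e-04), 1.49 ± 0.12 for Fcgr3 (adjusted p = 9.27e-07), 1.06 ± 0.20 for Fcgr1 (adjusted p = 5.59e-04) and 0.99 ± 0.14 for Fcgr2b (adjusted p = 5.63e-05).

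With the panel shift taken out, Fcgr3 alone passed, at 0.44 ± 0.11 log2 units higher in FAKKD (limma, adjusted p = 0.00345), where 58.1% of genes passed, 23.6% as higher and 34.5% as lower. Fcgr4 was at 0.54 ± 0.23 (adjusted p = 0.0618), Fcgr1 at 0.01 ± 0.18 (adjusted p = 0.969) and Fcgr2b at -0.06 ± 0.14 (adjusted p = 0.750). The Fcgr1 and Fcgr2b intervals of -0.39 to 0.41 and -0.38 to 0.25 leave room for changes of that size in either direction. Without FAKKD replicate 4, the deposited difference was 1.23 for Fcgr4 and 0.81 for Fcgr1, both still called. Against the panel and without that sample it was 0.20 for Fcgr4 (adjusted p = 0.25), -0.23 for Fcgr1 (adjusted p = 0.182), 0.08 for Fcgr2b (adjusted p = 0.692) and 0.38 for Fcgr3 (adjusted p = 0.0160).

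The inhibitor comparison asked how ascites cells differ when a FAK inhibitor is given to mice with FAKWT tumour cells. Fcgr4 fell and Fcgr2b rose on the deposited scale, while Fcgr1 and Fcgr3 did not pass the test. Fcgr4 was 1.76-fold lower in inhibitor than in vehicle samples (log2 fold change -0.82 ± 0.24, adjusted p = 0.0111) and Fcgr2b was 1.46-fold higher (0.55 ± 0.14, adjusted p = 0.00446). Over the panel 59.7% of genes passed, 49.2% higher and 10.5% lower, and 66.9% had samples that did not overlap, as was the case for these 2 receptors. Fcgr3 was at 0.26 ± 0.12 (adjusted p = 0.0734) and Fcgr1 at 0.05 ± 0.20 (adjusted p = 0.840, interval -0.39 to 0.49). Without inhibitor replicate 6, Fcgr3 passed at 0.37 (adjusted p = 0.0143).

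On the scale relative to the panel, all of the activating receptors were lower with the inhibitor. Fcgr4 was 2.94-fold lower (log2 fold change -1.56 ± 0.23, adjusted p = 1.56e-04), Fcgr1 was at -0.69 ± 0.18 (adjusted p = 0.00771) and Fcgr3 at -0.48 ± 0.11 (adjusted p = 0.00248). Fcgr2b, at -0.19 ± 0.14 (adjusted p = 0.292), did not pass. On this scale 46.5% of genes passed, 17.7% as higher and 28.8% as lower, and for 54.5% the vehicle and inhibitor samples did not overlap. Among the receptors, the samples of Fcgr1, Fcgr3 and Fcgr4 did not overlap. The signs of Fcgr1, Fcgr2b and Fcgr3 thus depended on the scale, and that of Fcgr4 did not.

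The choice of control mattered for Fcgr4. Against untreated FAKWT samples instead of vehicle, Fcgr4 in inhibitor samples was at -0.12 ± 0.24 as deposited (adjusted p = 0.669) and at -0.97 ± 0.23 relative to the panel (adjusted p = 0.00344). Against the same untreated samples, Fcgr2b (0.87 ± 0.14), Fcgr3 (0.61 ± 0.12) and Fcgr1 (0.62 ± 0.20) were called higher as deposited, in a comparison where 64.3% of genes passed, 53.7% as higher and 10.5% as lower. None of these genes was called relative to the panel, where 51.7% passed, 18.8% as higher and 32.9% as lower.

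The control groups were compared with each other because Fcgr4 and Fcgr1 stood higher in vehicle than in untreated ascites. No gene of the panel passed the test of vehicle against FAKWT (0.0% of 750), so none of the receptors did. Their log2 differences were 0.70 ± 0.24 for Fcgr4 (unadjusted p = 0.0132, limma), 0.56 ± 0.20 for Fcgr1 (unadjusted p = 0.0166), 0.35 ± 0.12 for Fcgr3 (unadjusted p = 0.0115) and 0.32 ± 0.14 for Fcgr2b (unadjusted p = 0.0381), with adjusted p-values from 0.201 to 0.371. The share of all genes with an unadjusted p under 0.05 was not counted, so these p-values have no background to be read against. Vehicle samples lay wholly above FAKWT samples for Fcgr1, Fcgr3 and Fcgr4, and these groups did not overlap for 16.1% of the panel. Without FAKKD replicate 4, which belongs to neither group but enters the shared estimate of the spread, Fcgr4 passed (adjusted p = 0.0282).

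Set directly against each other, inhibitor and FAKKD ascites differed in Fcgr3 and Fcgr4. Fcgr4 was 3.27-fold lower in inhibitor samples (log2 fold change -1.71 ± 0.24, adjusted p = 4.18e-04) and Fcgr3 was 1.84-fold lower (-0.88 ± 0.12, adjusted p = 3.25e-04). Both were also called relative to the panel, at -1.52 ± 0.23 (adjusted p = 4.63e-04) and -0.68 ± 0.11 (adjusted p = 5.19e-04). As deposited, 30.0% of genes passed, 9.73% as higher and 20.3% as lower, and relative to the panel 30.9% passed, 16.3% as higher and 14.7% as lower. Fcgr1 was at -0.45 ± 0.20 (adjusted p = 0.115) and Fcgr2b at -0.12 ± 0.14 (adjusted p = 0.533, interval -0.42 to 0.17). Without FAKKD replicate 4 the difference was -1.35 for Fcgr4 and -0.80 for Fcgr3, both still called, Fcgr1 was at -0.19 (adjusted p = 0.415) and Fcgr2b at -0.25 (adjusted p = 0.212).

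Whether the FAKKD effect and the inhibitor effect were of different size was tested as the difference of the differences, each against its own control. The FAKKD effect exceeded the inhibitor effect for the activating receptors, by 2.41 ± 0.34 log2 units for Fcgr4 (adjusted p = 9.35e-04), 1.23 ± 0.16 for Fcgr3 (adjusted p = 9.16e-04) and 1.01 ± 0.28 for Fcgr1 (adjusted p = 0.0237). Of the whole panel, 23.9% of genes passed this test, 16.3% in that direction and 7.6% in the other. Fcgr2b was at 0.44 ± 0.19 (adjusted p = 0.116, interval 0.02 to 0.86). Against the panel, where 26.0% passed, 11.2% upward and 14.8% downward, Fcgr4 (2.10 ± 0.33, adjusted p = 0.00129) and Fcgr3 (0.92 ± 0.15, adjusted p = 0.00159) passed and Fcgr1 did not (0.70 ± 0.26, adjusted p = 0.0646, or 0.46 with adjusted p = 0.104 without FAKKD replicate 4). The Fcgr1 call was also lost without vehicle replicate 3 (adjusted p = 0.0521), vehicle replicate 4 (adjusted p = 0.0564) or inhibitor replicate 6 (adjusted p = 0.0557). Without FAKKD replicate 4 the difference was 2.05 for Fcgr4, 1.15 for Fcgr3 and 0.75 for Fcgr1, all called, and 0.57 for Fcgr2b, which then passed too (adjusted p = 0.0443).

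**Figure D2:**
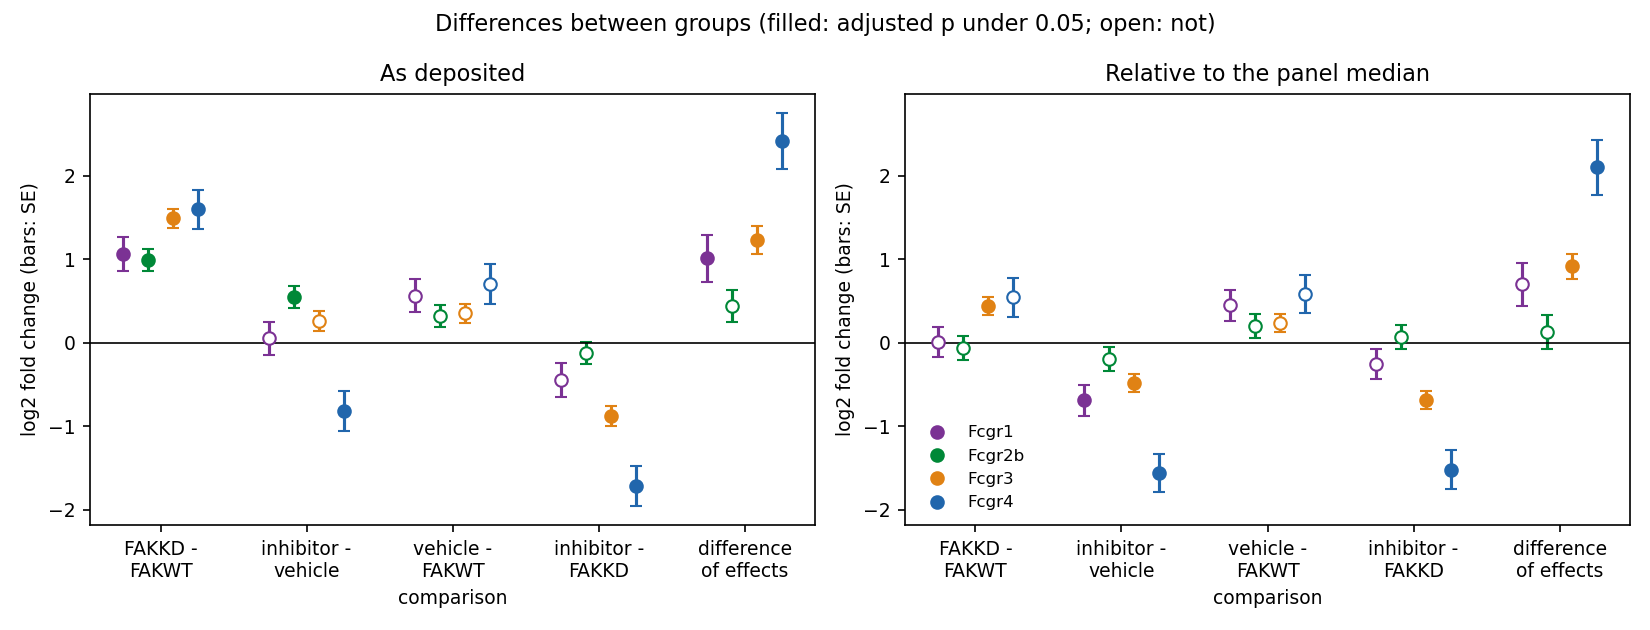
Log2 fold changes of the 4 receptors in 5 comparisons, as deposited (left) and relative to the panel median (right). Points are limma estimates and bars are SE; filled points passed at an adjusted p under 0.05 and open points did not. Fcgr4 lies at 1.59 for FAKKD minus FAKWT and at -0.82 for inhibitor minus vehicle as deposited, and at 0.54 and -1.56 relative to the panel.

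When receptors are set against each other within a sample, a factor shared by all genes of that sample cancels. The log2 difference of Fcgr4 and Fcgr2b, an activating against the inhibitory receptor, was -1.41, -1.78 and -1.88 in FAKWT samples, -1.17, -1.31 and -1.44 in vehicle samples, -2.66, -2.65 and -2.69 in inhibitor samples, and -1.57, -0.11 and -1.57 in FAKKD samples. The inhibitor samples were lowest and almost equal to each other, and FAKKD samples overlapped FAKWT and vehicle samples. The mean changed by -1.36 from vehicle to inhibitor (exact permutation p = 0.1, two-sided, the smallest that 3 against 3 samples allow) and by 0.61 from FAKWT to FAKKD (exact permutation p = 0.3). The latter change was 0.12 without FAKKD replicate 4.

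Averaged over both comparisons, no activating receptor passed the test of a shift against Fcgr2b. The mean change was -0.38 for Fcgr4 (exact permutation within each comparison, two-sided p = 0.5, adjusted p = 0.63 over 3 receptors), -0.21 for Fcgr1 (p = 0.43, adjusted p = 0.63) and 0.11 for Fcgr3 (p = 0.63, adjusted p = 0.63), from 400 assignments whose smallest p is 0.005. For Fcgr3 the 2 comparisons pointed in opposite directions, 0.50 for FAKKD and -0.28 for the inhibitor, each with an exact permutation p of 0.1. For Fcgr1 they were 0.07 (exact p = 1.0) and -0.49 (exact p = 0.1). The FAKKD change was 0.30 for Fcgr3 and turned to -0.31 for Fcgr1 without FAKKD replicate 4. Without FAKKD replicate 4 the Fcgr1 mean was -0.40, with an adjusted exact permutation p of 0.045.

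**Figure D3:**
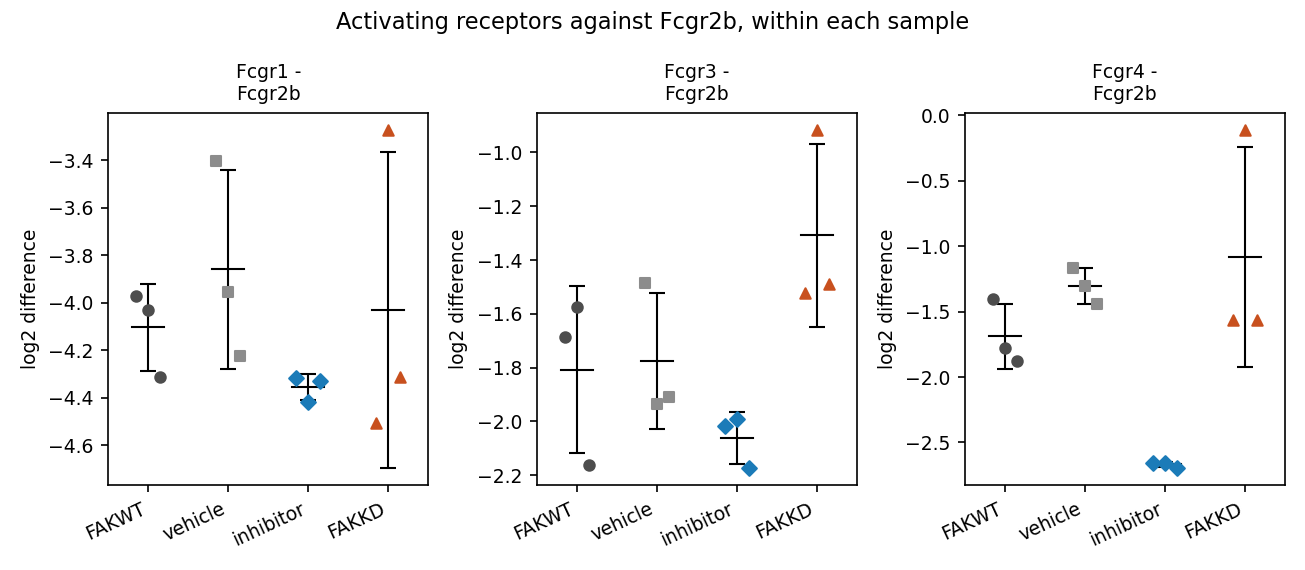
Log2 difference between each activating receptor and Fcgr2b within a sample, by group. Points are samples, bars are means and whiskers are SD (n = 3); axes differ and do not start at 0. The 3 inhibitor samples of Fcgr4 minus Fcgr2b lie between -2.69 and -2.65, below all others, and FAKKD replicate 4 is the highest sample in each panel.

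The signalling partner of the activating receptors, the common gamma chain gene Fcer1g, rose in both comparisons. Its log2 values were 8.66, 9.04 and 8.92 in FAKWT, 9.34, 9.19 and 9.13 in vehicle, 10.30, 10.16 and 10.03 in inhibitor, and 10.32, 10.51 and 10.47 in FAKKD samples. The inhibitor and FAKKD samples were thus close to each other and above all controls. This was 1.56 ± 0.12 higher in FAKKD (adjusted p = 6.95e-07) and 0.94 ± 0.12 higher with the inhibitor (adjusted p = 3.95e-05), and the effects differed by 0.62 ± 0.16 (adjusted p = 0.0180). Relative to the panel, Fcer1g was higher in FAKKD (0.51 ± 0.10, adjusted p = 8.78e-04), and it was at 0.20 ± 0.10 with the inhibitor (adjusted p = 0.129).

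The other measured Fc receptor genes, 4 of 11 listed when Fcer1g is counted, belong to the IgE system. Fcer1a and Ms4a2, the alpha and beta chains of the high-affinity IgE receptor of mast cells and basophils, rose by 2.34 ± 0.56 and 2.44 ± 0.44 in FAKKD and by 3.16 ± 0.56 and 2.44 ± 0.44 with the inhibitor (adjusted p from 4.08e-04 to 0.00270). Fcer2a, the low-affinity IgE receptor CD23 of B cells, rose by 2.01 ± 0.39 and 1.78 ± 0.39 (adjusted p = 7.07e-04 and 0.00211). Relative to the panel the signs were the same, and only Fcer2a in FAKKD did not pass (0.96, adjusted p = 0.0525, or 1.34 with adjusted p = 0.00942 without FAKKD replicate 4). The FAKKD and inhibitor effects did not pass the test of a difference for any of these 3 genes (adjusted p from 0.482 to 0.995). Fcer2a counts went down to 8 in a sample, and of these 3 genes the SE was largest for Fcer1a (0.56).

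Kinases and adaptors downstream of the receptors were counted beside the panel, of which 65.1% of genes were called higher in FAKKD and 49.2% with the inhibitor. Of 15 measured, 12 were called higher and 1 lower in FAKKD, and 13 higher and 0 lower with the inhibitor, with list medians of 1.06 and 0.74 against 0.95 and 0.54 for all genes. Against the panel the counts were 7 higher and 6 lower in FAKKD, beside 23.6% and 34.5% of all genes. With the inhibitor they were 4 higher and 4 lower, beside 17.7% and 28.8%. Among those named by smallest p, Lyn, a Src-family kinase that phosphorylates both ITAM and ITIM motifs, rose by 1.45 ± 0.11 in FAKKD (adjusted p = 9.17e-07), and its FAKKD effect exceeded the inhibitor effect by 1.07 ± 0.16 (adjusted p = 0.00146). Lyn was 0.40 higher in FAKKD and 0.36 lower with the inhibitor once set against the panel. Btk, a Tec-family kinase, rose by 1.61 ± 0.12 in FAKKD (adjusted p = 7.06e-07), and Pik3cg, a PI3-kinase catalytic subunit, by 1.68 ± 0.15 (adjusted p = 2.26e-06). Syk, the kinase recruited to the ITAM, rose by 1.79 ± 0.20 with the inhibitor (adjusted p = 2.08e-05) and by 1.05 ± 0.16 relative to the panel (adjusted p = 1.81e-04).

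On the inhibitory side, 5 of 7 measured ITIM receptors and phosphatases rose in FAKKD, and 5 rose and 1 fell with the inhibitor, beside 65.1% and 49.2% of all genes called higher. Inpp5d, which encodes the phosphatase SHIP1 that acts below Fcgr2b, rose by 1.82 ± 0.20 in FAKKD (adjusted p = 9.56e-06) and by 1.16 ± 0.20 with the inhibitor (adjusted p = 3.64e-04). Pecam1, an ITIM adhesion receptor of endothelium and leukocytes, rose by 2.28 ± 0.23 and 2.60 ± 0.23 (adjusted p = 5.87e-06 and 5.11e-06). The list medians were 1.82 and 1.16, where those of all genes were 0.95 and 0.54. Relative to the panel, 4 members were higher and 1 lower in FAKKD, beside 23.6% and 34.5% of all genes. With the inhibitor 3 were higher and 1 lower, beside 17.7% and 28.8%. Fcgr2b itself passed in neither comparison on that scale.

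Because the receptors sit on macrophages, each was also set against the mean of the 16 macrophage genes in the same sample. Of those genes 15 were called higher in FAKKD and 12 with the inhibitor, none lower as deposited, beside 65.1% and 49.2% of all genes called higher. Csf1r, which encodes the CSF-1 receptor of macrophages, rose by 2.20 ± 0.12 (adjusted p = 1.28e-07) and 1.86 ± 0.12 (adjusted p = 1.08e-06). On the other scale 10 macrophage genes were higher and 1 lower in FAKKD, beside 23.6% and 34.5% of all genes. With the inhibitor 7 were higher and 3 lower, beside 17.7% and 28.8%.

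Each receptor was lower against this reference in FAKKD and inhibitor samples together than in their controls. The mean log2 change over both comparisons was -1.0 for Fcgr4 (exact permutation within each comparison, two-sided, adjusted p = 0.035), -0.83 for Fcgr1, -0.62 for Fcgr2b and -0.51 for Fcgr3 (adjusted p = 0.00667 for each, from p = 0.005, the smallest the 400 assignments can give). Fcgr4 was at -1.86 with the inhibitor (exact permutation p = 0.1) and at -0.14 in FAKKD (exact permutation p = 0.7), or -0.45 without FAKKD replicate 4. Fcgr3 was at -0.78 with the inhibitor and -0.24 in FAKKD, Fcgr1 at -0.99 and -0.67, and Fcgr2b at -0.49 and -0.74, each with an exact permutation p of 0.1, and whether the changes differed between the comparisons was not tested. With the median of the 16 genes in place of their mean, no receptor passed (changes from -0.58 to -0.09, adjusted p from 0.06 to 0.46). The Fcgr4 call was also lost without FAKWT replicate 1 (adjusted exact p = 0.055), FAKKD replicate 3 (0.05) or FAKKD replicate 5 (0.06).

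**Figure D4:**
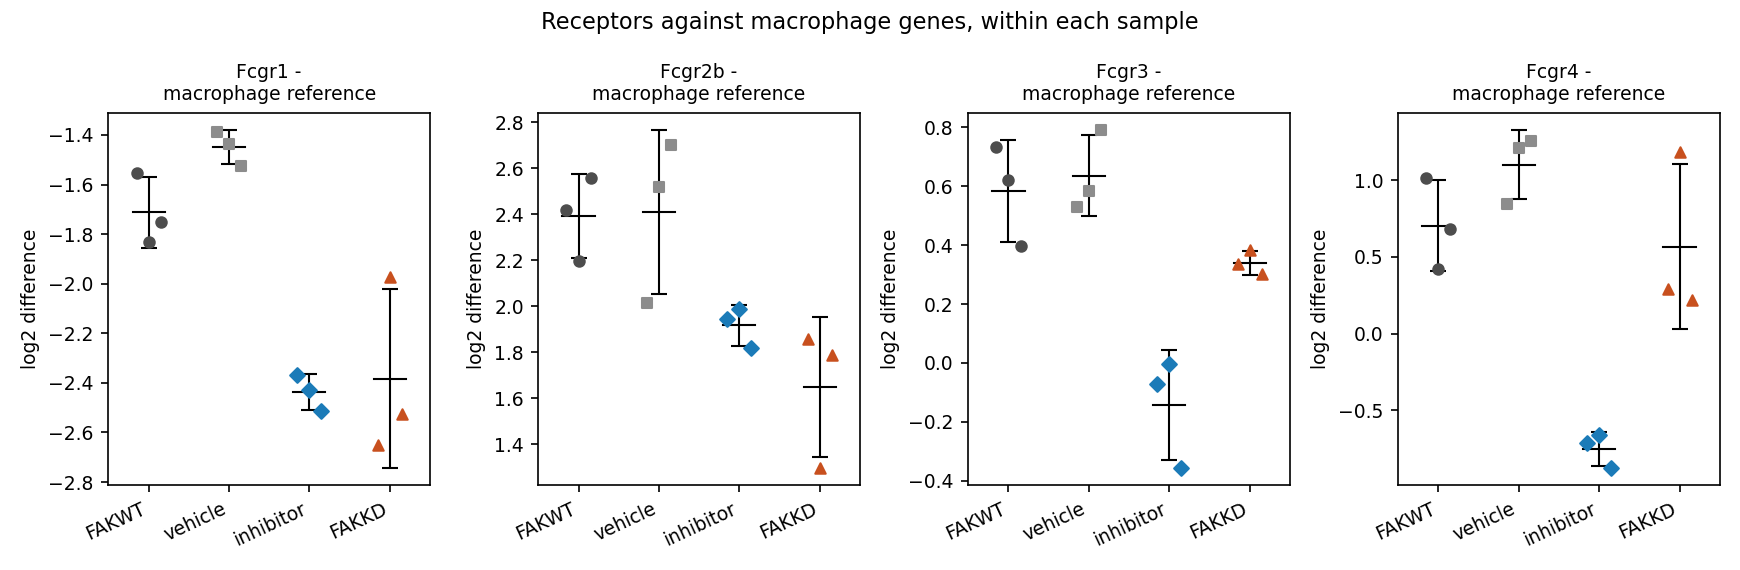
Log2 difference between each receptor and the mean of 16 macrophage genes in the same sample, by group. Points are samples, bars are means and whiskers are SD (n = 3); axes differ and do not start at 0. For Fcgr1, Fcgr2b and Fcgr3 the inhibitor and FAKKD samples lie below all controls. For Fcgr4 the inhibitor samples (-0.88 to -0.66) lie below all others while FAKKD overlaps FAKWT.

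Markers of other cell types, only some of which carry these receptors, were also counted, and their part in the receptor values was not tested. As deposited, 65.1% of all genes were called higher and 9.47% lower in FAKKD, and 49.2% and 10.5% with the inhibitor. Against the panel the shares were 23.6% higher and 34.5% lower in FAKKD, and 17.7% and 28.8% with the inhibitor. All 13 B-cell markers were called higher in FAKKD and 12 of 13 with the inhibitor. Their summed level ran from 1355 to 2215 in controls and from 5613 to 9980 in FAKKD and inhibitor samples. Of 13 NK-cell markers 10 were called higher in FAKKD and 2 with the inhibitor, with summed levels of 568 to 852 in controls, 800 to 918 in inhibitor and 1247 to 2241 in FAKKD samples. Of 13 monocyte and neutrophil markers 7 were higher and 1 lower in FAKKD, and 2 higher and 1 lower with the inhibitor, whereas on the panel scale 2 rose and 4 fell in FAKKD and 1 was higher and 5 lower with the inhibitor. Their summed level overlapped between inhibitor (6128 to 17148) and control samples (6647 to 12821), and was 14661 to 17402 in FAKKD samples. T-cell markers were called higher for 12 of 12 genes in each comparison, mast-cell markers for 5 of 6, and dendritic-cell markers for 6 of 7 in FAKKD and 3 of 7 with the inhibitor. On the panel scale the counts called higher in FAKKD and with the inhibitor were 9 and 5 for T cells, 4 and 4 for mast cells with 1 lower in each, and 2 and 2 for dendritic cells with 0 and 1 lower. Relative to the panel, NK-cell markers were 1 higher and 1 lower in FAKKD and 1 higher and 3 lower with the inhibitor, whereas B-cell markers were 12 higher and 0 lower, and 9 higher and 1 lower. No list had a member at or under 3 counts over a whole group.

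Markers of the tumour cells were mostly lower. All 7 measured epithelial and tumour markers fell in FAKKD, and 5 fell and 2 rose with the inhibitor. Of all genes, 9.47% were called lower in FAKKD, and 10.5% lower and 49.2% higher with the inhibitor. Epcam, an epithelial adhesion molecule, fell by 1.70 on the log2 scale in FAKKD (adjusted p = 3.23e-06). On the panel scale 7 markers fell in FAKKD and 5 with the inhibitor, and none rose, where 34.5% and 28.8% of all genes were called lower. The summed level was 2730 to 3105 in FAKKD samples, 8028 to 8577 in inhibitor samples and 6960 to 8380 in the controls.

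Phagocytosis and complement receptors, which share tasks with the Fc receptors, were counted likewise. Of 16 measured, 14 rose and 1 fell in FAKKD (list median 1.55, all genes 0.95, of which 65.1% were called higher), and 10 rose and 0 fell with the inhibitor (list median 1.01, all genes 0.54, of which 49.2% were called higher). C3ar1, the receptor for complement fragment C3a, rose by 1.90 ± 0.12 in FAKKD (adjusted p = 2.90e-07) and by 1.40 ± 0.12 with the inhibitor (adjusted p = 4.17e-06). Itgam, the alpha chain of complement receptor 3, differed between inhibitor and FAKKD ascites, at -1.22 ± 0.14 (adjusted p = 1.42e-04). Against the panel, 9 of the list were higher and 2 lower in FAKKD, beside 23.6% and 34.5% of all genes. With the inhibitor 5 were higher and 5 lower, beside 17.7% and 28.8%.

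The genes whose pattern across the 12 samples was most like that of each receptor were taken by Pearson's r on log2 values relative to the panel. These correlations are descriptions without a test, and the points share groups and factors. For Fcgr4 they were Zbp1 (r = 0.96), Psmb9 (0.92), Tdo2 (0.92), Tap1 (0.92) and Il6 (0.92). Zbp1 is an interferon-inducible sensor of nucleic acids, Psmb9 an interferon-inducible proteasome subunit, Tap1 a peptide transporter of antigen presentation, Tdo2 a tryptophan-degrading enzyme and Il6 a cytokine. Without FAKKD replicate 4 the same 5 genes had r from 0.89 to 0.97 over 11 samples.

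For Fcgr1 the nearest genes were Psmb8 (r = 0.91), Fpr2 (0.90), Irf1 (0.89), Tap2 (0.82) and Tap1 (0.81). Psmb8 is another inducible proteasome subunit, Fpr2 a formyl peptide receptor of myeloid cells, and Irf1 an interferon-induced transcription factor. For Fcgr3 they included Ccnd3 (0.90), Nt5e (0.88), Emr1 (0.87) and Lyn (0.86), which name cyclin D3, the ectoenzyme CD73, the macrophage marker F4/80 and the kinase described above. Their r on deviations from the group means ran from 0.04 to 0.72. For Fcgr2b they included Il11ra1 (0.79), Pmch (0.76), Klra1 (0.76) and Irak3 (0.70), and Il11ra1, Pmch and Klra1 had mean recovered counts of only 10.8 to 39.6.

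Among the receptors themselves, on the same scale, r was 0.86 for Fcgr3 with Fcgr4, 0.77 for Fcgr1 with Fcgr4 and 0.51 for Fcgr1 with Fcgr3. Fcgr2b had r of -0.06 with Fcgr1, -0.14 with Fcgr3 and 0.00 with Fcgr4. As deposited these values were 0.62, 0.79 and 0.35, and on deviations from group means -0.78, -0.53 and -0.42. Relative to the panel, FAKKD replicate 4 had the lowest Fcgr2b value (11.89) and the highest of Fcgr3 (10.97) and Fcgr4 (11.78). These r were not computed without that sample, so how far they rest on it is not known. Between activating receptors r was 0.77 to 0.86 as deposited and 0.42 to 0.81 on those deviations. The sign and size of r for Fcgr2b thus depended on the scale. These are descriptions across 12 samples that share 4 groups.

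**Figure D5:**
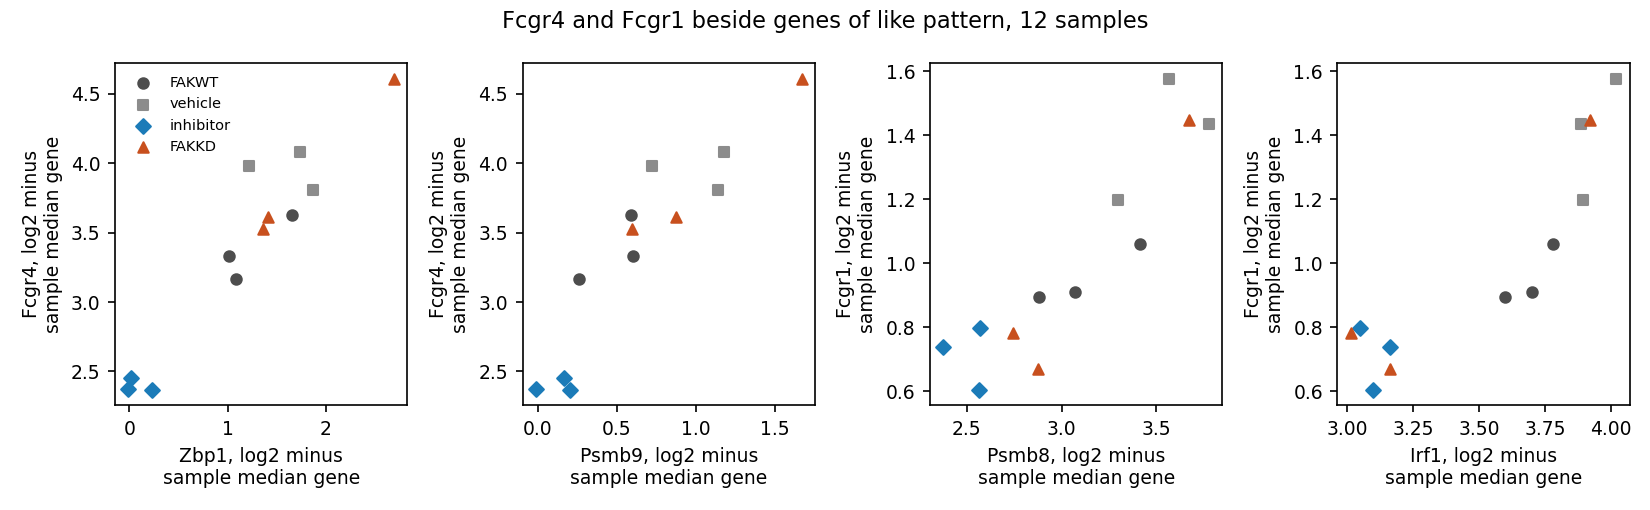
Fcgr4 against Zbp1 and Psmb9, and Fcgr1 against Psmb8 and Irf1, each as log2 value minus the median gene of the sample; each point is 1 of 12 samples. The inhibitor samples sit at the lower left for Fcgr4, FAKKD replicate 4 is at the upper right, and r is 0.96 for Fcgr4 with Zbp1.

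The comparisons of the genes most like Fcgr4 can be set beside its own. Zbp1 was 1.62 ± 0.34 higher in FAKKD (adjusted p = 0.00116) and at -0.79 ± 0.34 with the inhibitor (adjusted p = 0.0642), a difference of 2.42 ± 0.48 (adjusted p = 0.00517). Il6 rose by 2.11 ± 0.41 in FAKKD (adjusted p = 6.92e-04) and fell by 1.53 with the inhibitor (adjusted p = 0.00698), and Tdo2 rose by 1.50 ± 0.26 and fell by 1.94 (adjusted p = 2.99e-04 and 6.32e-05). Psmb9 was 1.61 ± 0.27 higher in FAKKD (adjusted p = 2.20e-04) and at -0.15 ± 0.27 with the inhibitor (adjusted p = 0.644), and Tap1 was 1.50 ± 0.27 higher (adjusted p = 3.92e-04) and at -0.09 ± 0.27 (adjusted p = 0.800). The differences were 1.77 ± 0.38 for Psmb9 (adjusted p = 0.00646) and 1.59 ± 0.38 for Tap1 (adjusted p = 0.0110). With FAKKD replicate 4 left out, the FAKKD effect and the difference of all 5 genes were still called as deposited, from 1.17 to 1.71 and from 1.26 to 3.37. Relative to the panel, Psmb9 and Tap1 were lower with the inhibitor (-0.89 and -0.83, adjusted p = 0.00748 and 0.0153), and did not pass in FAKKD (0.56 and 0.45, adjusted p = 0.0570 and 0.136). Il6 alone of the 5 passed in FAKKD on that scale (1.06, adjusted p = 0.0368), but not without FAKKD replicate 4 (0.67, adjusted p = 0.153). Zbp1 and Tdo2 did not pass in FAKKD there (0.57 and 0.45, adjusted p = 0.14 and 0.175) and both were lower with the inhibitor. Since these genes were picked for their likeness over the same samples, their contrasts are not independent of that of Fcgr4.

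Interferon-response genes, a list that holds Irf1 but none of the receptors, were also counted. Of 22 measured, 18 were called higher and 1 lower in FAKKD, and 4 higher and 4 lower with the inhibitor. In the difference, 11 had a FAKKD effect above the inhibitor effect with 0 below. Of all genes, 65.1% were higher in FAKKD, 49.2% with the inhibitor and 16.3% in the difference, and 9.47%, 10.5% and 7.6% lower. The list medians were 1.09, 0.17 and 1.08, where those of all genes were 0.95, 0.54 and 0.32. Set against the panel, 7 of the list were higher and 6 lower in FAKKD, beside 23.6% and 34.5% of all genes. With the inhibitor 2 were higher and 10 lower, beside 17.7% and 28.8%. In the difference 8 had the larger FAKKD effect with 0 the smaller, beside 11.2% and 14.8%. Leaving out FAKKD replicate 4, 60.4% of all genes were higher and 9.6% lower in FAKKD as deposited, and 14.5% and 6.53% in the difference. Of the list, 15 were then called higher and 2 lower in FAKKD, and 9 had the larger FAKKD effect with 0 the smaller. Examples are Oas2, an antiviral oligoadenylate synthetase, with a difference of 1.82 ± 0.36 (adjusted p = 0.00526), and Ifit2, an interferon-induced antiviral protein, with 1.72 ± 0.38 (adjusted p = 0.00705). Ciita, the transactivator of MHC class II genes, rose in both FAKKD (2.37 ± 0.18, adjusted p = 7.75e-07) and inhibitor samples (1.43 ± 0.18, adjusted p = 4.53e-05).

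The IL-4, IL-10 and TGF-beta genes, which are known to modulate Fc receptor expression, gave mixed counts. Of 15 measured, 9 rose and 1 fell in FAKKD, and 10 rose and 2 fell with the inhibitor, beside 65.1% and 49.2% of all genes called higher. By the panel scale 4 of the list were higher and 8 lower in FAKKD, beside 23.6% and 34.5% of all genes. With the inhibitor 3 were higher and 4 lower, beside 17.7% and 28.8%. Il10ra, a chain of the IL-10 receptor, rose by 2.09 ± 0.18 (adjusted p = 1.86e-06) and 1.59 ± 0.18 (adjusted p = 2.22e-05). Arg1, the macrophage arginase, was 2.55 ± 0.32 log2 units lower in inhibitor than in FAKKD samples (adjusted p = 2.51e-04). Its log2 values overlapped between FAKKD (12.20 to 13.02) and FAKWT samples (12.26 to 12.83). They were 9.71 to 10.26 in inhibitor and 11.77 to 13.16 in vehicle samples.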

How the data were processed

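The values deposited by the authors are on a log2 scale and already normalized. Which software, background step or housekeeping genes they used is not stated in the labels. All columns matched a sample by title. Whole counts were recovered by taking 2 to the power of each value and dividing by 1 factor per sample, with all genes within a tolerance of 0.01 of a whole number. The receptor genes and gene lists were chosen with earlier results of these data known. Replicates differed by more than counting error (chi-square per degree of freedom 8.35 to 59.6).

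The linear model (limma 3.58.1, R 4.3.3; lmFit, contrasts.fit, eBayes with trend) had a mean for each of 4 groups and used all 12 samples and 750 genes, two-sided, with Benjamini-Hochberg adjustment at 0.05 and no filter or pseudocount. Errors are SE for fold changes and SD for means, and intervals are 95%. Quantities within a sample were tested by exact permutation within each comparison. The floor is 3 counts over a group and covers counting error only. The model was tested on simulated data. The rule for named genes took the 4 receptors, the Fc receptor partners, from every other list up to 3 genes of lowest p in a comparison, and for each receptor the 5 genes with the highest Pearson correlation. Those named from the lists are some of the genes that rule gives. Some genes of the rule are not reported here. Promoter windows and gene identifiers came from RefSeq tables of GRCm38.p6, and all 4 symbols matched. Figures were drawn with matplotlib 3.10.9.

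Alternatives were scaling to the panel median or to total counts, quantile normalization, a filter dropping 25% of genes, a pseudocount of 1, other variance models and array weights, other thresholds, other controls, a replicate block, and leaving out each sample. The controls of untreated FAKWT or vehicle alone, and leaving out FAKKD replicate 4 at the panel median, within each FAKKD comparison or in the gene lists, were added after seeing the data.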

Additional observations from a re-analysis of the deposited data

Results flagged for a closer look

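For 3 receptors the FAKKD effect and the inhibitor effect differed by a test of the difference itself (limma, adjusted over 750 genes). The difference was 2.41 ± 0.34 log2 units for Fcgr4 (SE, adjusted p = 9.35e-04), from a FAKKD effect of 1.59 and an inhibitor effect of -0.82. It was 1.23 ± 0.16 for Fcgr3 (adjusted p = 9.16e-04), from 1.49 and 0.26, and 1.01 ± 0.28 for Fcgr1 (adjusted p = 0.0237), from 1.06 and 0.05. The Fcgr1 call was lost at the panel median (adjusted p = 0.0646), at a common total and under quantile normalization. As deposited it was also lost without vehicle replicate 3, vehicle replicate 4 or inhibitor replicate 6, and kept without FAKKD replicate 4. All 3 FAKKD samples lay above all 3 FAKWT samples for these genes, and these groups did not overlap in 76.8% of the panel. All 3 inhibitor samples lay below all 3 vehicle samples for Fcgr4 alone, where 66.9% of the panel did not overlap. Of the panel, 23.9% of genes passed the same test, 16.3% in the direction of these receptors and 7.6% in the other.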

How the results depend on the processing

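The calls of Fcgr4 in the difference of effects and in inhibitor against FAKKD, and of Fcgr3 in those and in FAKKD against FAKWT, were kept under every alternative run. In FAKKD against FAKWT the number of receptors called went from 4 to 1 at a common panel median and to 2 at a common total or under quantile normalization, with 1 to 4 when a sample was left out (1 without FAKKD replicate 4 at the panel median). With the inhibitor it went from 2 (Fcgr2b higher and Fcgr4 lower) to 3 at a common panel median, where Fcgr1, Fcgr3 and Fcgr4 were lower. It went to 1 under quantile normalization and was 2 to 3 with a sample left out. In vehicle against FAKWT the number went from 0 to 4 at an unadjusted 0.05, where the share of all genes was not counted. It was 0 to 1 with a sample left out. Leaving out a sample gave 2 to 2 in inhibitor against FAKKD and 2 to 4 in the difference. Without FAKKD replicate 4, 60.4% of all genes were called higher and 9.6% lower in FAKKD as deposited. At the panel median the shares without it were 21.9% and 33.3%. For the common total, quantile normalization and the other samples left out, the share of all genes was not counted.

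Signs turned with scaling. At the panel median, the total and quantiles, the inhibitor effect was -0.69, -0.56 and -0.40 for Fcgr1 and -0.48, -0.35 and -0.14 for Fcgr3, and inhibitor minus FAKKD was 0.071, 0.17 and 0.13 for Fcgr2b. At the first 2 settings Fcgr2b was at -0.19 and -0.070 with the inhibitor and at -0.063 and -0.028 in FAKKD. Fcgr1 was at -0.10 with the inhibitor without vehicle replicate 9, and at -0.23 in FAKKD without FAKKD replicate 4 at the panel median. These scalings take out the sample factor by construction, and other causes were not tested. Over all comparisons of single receptors and alternatives, 461 values kept their direction and side of the threshold, 17 lost the call, 16 gained it and 18 turned sign.

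Within samples, the FAKKD comparison alone gave 0.073 for Fcgr1 minus Fcgr2b and 0.61 for Fcgr4 minus Fcgr2b, and the inhibitor comparison alone gave -0.28 for Fcgr3 minus Fcgr2b. With a sample left out these means ran from -0.40 to -0.092 (Fcgr1), 0.01 to 0.18 (Fcgr3) and -0.62 to -0.26 (Fcgr4). Against the macrophage genes, the FAKKD comparison alone gave -0.67, -0.74, -0.24 and -0.14 for Fcgr1, Fcgr2b, Fcgr3 and Fcgr4, the inhibitor comparison alone -0.99, -0.49, -0.78 and -1.86, where 3 against 3 samples cannot pass, and the list median -0.41, -0.20, -0.093 and -0.58. With a sample left out they ran from -0.93 to -0.76, -0.72 to -0.53, -0.56 to -0.46 and -1.15 to -0.91.

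With the replicate number as a block (replicate block, consensus correlation 0.0557) the number of receptors called was 4, 2, 0, 2 and 3, as without it. Same-numbered samples share only a number: their deviations from group means had r from -0.22 to 0.35 over 7 pairs. Fcgr4 with the inhibitor was at -0.47 (limma, adjusted p = 0.137) against both control groups together. The 3 samples a group limit every value, and Fcgr1, at 227 to 464 counts, has the largest counting error of the 4.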
